A study of Homo sapiens with 8 samples.

Results

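The HSP70 and HSP110 family of cytosolic chaperones was followed across 4 treatments of human skin fibroblasts. The family was taken as 10 genes, HSPA1A, HSPA1B, HSPA1L, HSPA2, HSPA4, HSPA4L, HSPA6, HSPA7, HSPA8 and HSPH1, found by symbol among the 24598 genes of the deposited table, and every one of the 10 had a row. All 10 also passed the filter on low values that left 22866 genes for testing. HSPA7 passed it only through its values with celastrol, so that gene had to differ and is given apart from the others below.

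The cells were CCD-1077Sk, an established fibroblast line from normal human skin, beyond passage 8, cultured in high-glucose DMEM with 10% serum and collected after 6 h of treatment. There were 4 groups of 2 libraries each, which were TGFB1 with celastrol at 500 nM, celastrol at 500 nM with BSA and citric acid, TGFB1 with DMSO, and control cells given BSA, citric acid and DMSO. TGFB1 is the cytokine that drives matrix production in fibroblasts, and celastrol is a plant triterpenoid. The sources used here give no dose for TGFB1. All libraries come from 1 cell line and the labels name no separate cultures within a group, so the p-values below reflect spread among libraries that may be only technical. The design asks how celastrol alters expression in fibroblasts given TGFB1.

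HSP70 proteins bind unfolded stretches of other proteins and release them in a cycle driven by ATP. J-domain proteins bring clients to HSP70 and start ATP hydrolysis, and exchange factors, among them the large HSP70 relatives called HSP110, release ADP so that the client can leave. In stressed cells the transcription factor HSF1 binds heat shock elements, repeats of the unit GAA and its reverse TTC, in front of the inducible members, while the constitutive member HSPA8 is made in unstressed cells too.

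The sequences shown here are the 250 bases before the annotated start of 6 members, taken from RefSeq on GRCh38.p14. They were chosen because these members differ in how they changed with celastrol. For HSPA2 and HSPA8 the RefSeq start lies inside the span of the gene in the deposited table, so distances count from the RefSeq start only. Capitals mark heat shock element motifs, searched as GAANNTTC or TTCNNGAA (a pair of units) and as GAANNTTCNNGAA or TTCNNGAANNTTC (3 units). Each set reads the same on both strands, and every 3-unit match contains overlapping pairs. HSPA1A is at chr6:31815293-31815542 (plus strand), HSPA1B at chr6:31827488-31827737 (plus), HSPA6 at chr1:161524290-161524539 (plus), HSPA8 at chr11:123062137-123062386 (minus), HSPH1 at chr13:31162389-31162638 (minus) and HSPA2 at chr14:64540491-64540740 (plus).
HSPA1A: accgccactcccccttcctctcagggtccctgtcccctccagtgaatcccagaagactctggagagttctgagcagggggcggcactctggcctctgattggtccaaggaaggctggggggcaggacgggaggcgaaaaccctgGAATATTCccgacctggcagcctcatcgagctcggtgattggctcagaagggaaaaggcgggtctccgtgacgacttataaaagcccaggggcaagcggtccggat
HSPA1B: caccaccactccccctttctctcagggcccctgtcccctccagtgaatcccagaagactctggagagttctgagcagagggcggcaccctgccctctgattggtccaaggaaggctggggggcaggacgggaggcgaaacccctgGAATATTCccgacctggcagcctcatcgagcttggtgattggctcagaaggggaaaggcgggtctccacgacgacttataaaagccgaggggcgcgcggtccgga
HSPA6: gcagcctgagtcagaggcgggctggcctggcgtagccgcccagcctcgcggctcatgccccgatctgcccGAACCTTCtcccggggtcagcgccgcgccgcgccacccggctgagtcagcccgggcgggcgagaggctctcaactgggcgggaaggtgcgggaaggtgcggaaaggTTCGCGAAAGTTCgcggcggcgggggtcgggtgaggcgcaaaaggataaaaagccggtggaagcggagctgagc
HSPA8: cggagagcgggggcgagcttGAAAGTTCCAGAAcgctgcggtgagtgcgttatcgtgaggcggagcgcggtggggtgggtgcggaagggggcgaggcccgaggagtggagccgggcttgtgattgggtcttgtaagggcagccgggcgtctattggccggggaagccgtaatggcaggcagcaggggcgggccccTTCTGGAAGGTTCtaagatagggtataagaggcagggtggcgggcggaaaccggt
HSPH1: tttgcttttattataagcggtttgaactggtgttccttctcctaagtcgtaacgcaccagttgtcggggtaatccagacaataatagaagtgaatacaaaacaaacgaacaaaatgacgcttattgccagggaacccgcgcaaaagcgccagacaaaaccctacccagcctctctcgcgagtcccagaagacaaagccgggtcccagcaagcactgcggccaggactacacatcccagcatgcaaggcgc
HSPA2: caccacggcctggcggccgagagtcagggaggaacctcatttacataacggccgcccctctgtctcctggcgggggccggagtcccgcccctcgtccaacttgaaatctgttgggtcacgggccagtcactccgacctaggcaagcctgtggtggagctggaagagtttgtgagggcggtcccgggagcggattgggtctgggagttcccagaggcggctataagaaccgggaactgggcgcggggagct

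A promoter was in the RefSeq table for 9 members, HSPA7 being the other. In the 300 bases that reach 50 bases past the start, a pair of units was found in 6 of the 9 members, against 16.2% of the 27305 genes in the table. A match of 3 units was found in 2 of the 9, against 0.608% of genes. HSPA6 carried its 3-unit match 74 bases before the start and a further pair 180 bases before it. HSPA8 carried 3-unit matches 230 and 55 bases before the start, at chr11:123062354-123062366 and chr11:123062179-123062191. HSPA1A and HSPA1B each had the same pair, 106 and 105 bases before their starts. The HSPA1A pair, at chr6:31815437-31815444, is also the pair found 161 bases before HSPA1L, since these genes lie head to head and 260 bases apart. HSPA4L has 3 annotated starts, and a pair lay 170 bases before start 2. No such letters were found in these windows of HSPA2, HSPA4 and HSPH1, which says nothing of sites elsewhere. A match is a description of the letters and not evidence of binding.

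**Figure D1:**
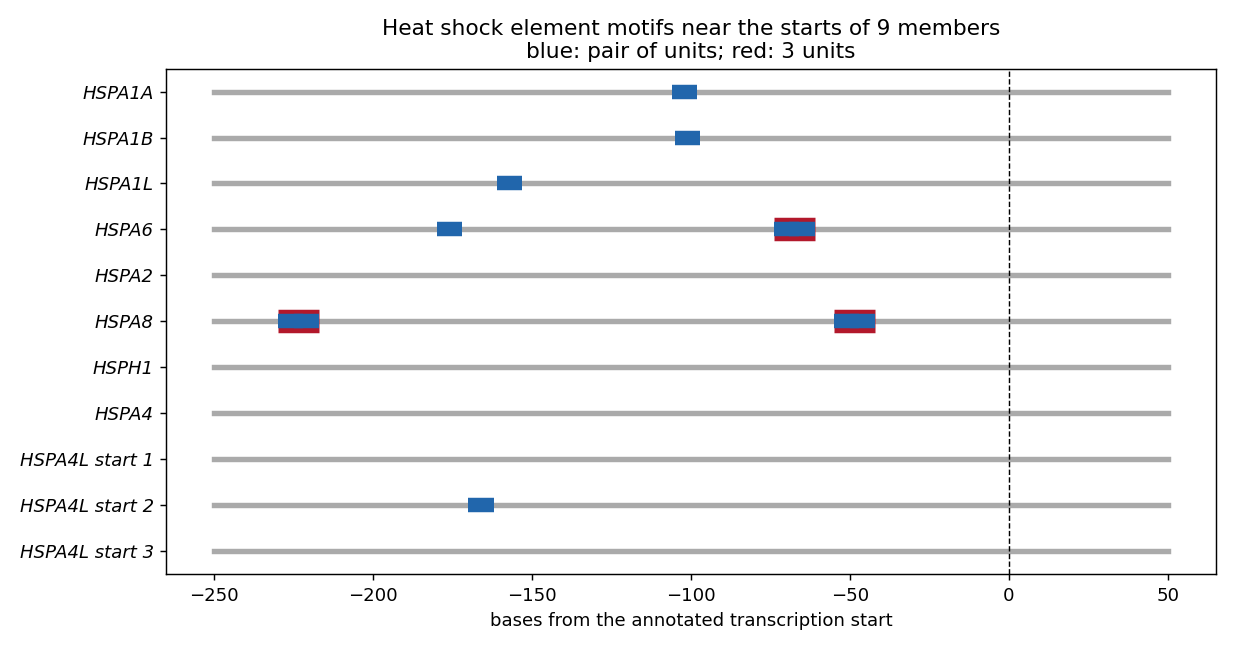
Heat shock element motifs in the promoters of 9 members. The horizontal axis is the distance in bases from the annotated transcription start (dashed line), each gray line is 1 promoter of 300 bases, blue boxes are pairs of units and red boxes are matches of 3 units. HSPA6 and HSPA8 have red boxes, and HSPA2, HSPH1 and HSPA4 have no box.

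Library depth was 20716767 to 42518385 estimated reads. Values are normalized reads, that is, estimated reads divided by 1 size factor per library, and a count of 0 allows up to 3 reads, or 1.80 to 4.24 normalized reads, for counting error only. Of 10 fibroblast markers all 10 were in the table and none was at 0 in any library, with summed levels of 381771 to 444429 with TGFB1 and celastrol, 400604 to 475528 with celastrol, 554797 to 674411 with TGFB1 and 471340 to 495880 in controls. Of markers of other skin cells, 1 of 5 for keratinocytes, 2 of 4 for endothelium, 2 of 4 for melanocytes and 3 of 4 for immune cells were in the table. The defining markers KRT5, KRT14, CDH5, TYR and CD3E had no row. The endothelial sum was higher in celastrol libraries, at 265 to 348 with TGFB1 and celastrol against 17.1 to 22.6 with TGFB1, and 262 to 273 with celastrol against 18.0 to 32.5 in controls. The melanocyte sum was 95.7 to 122 with TGFB1 and celastrol against 11.1 to 14.1 with TGFB1, and 105 to 134 with celastrol against 8.75 to 11.4 in controls. In TGFB1-treated cells this difference lay in MLANA, at 108 and 85.8 with celastrol against 0 and 1.23. PMEL, the other melanocyte marker in the table, was at 14.0 and 9.90 against 14.1 and 9.83. The immune sum was 346 to 475 with TGFB1 and celastrol against 306 to 314 with TGFB1, and 367 to 452 with celastrol against 240 to 363 in controls. In TGFB1-treated cells most of it was CD68, at 305 and 433 with celastrol against 307 and 292. PTPRC was at 30.1 and 33.0 against 4.24 and 12.3, and LYZ at 10.5 and 8.80 against 2.82 and 1.23. PECAM1 was listed at 0 in both TGFB1 libraries and 1 control library, and MLANA in 1 TGFB1 library and both control libraries. Whether these markers had a part in the family's values was not tested. In bulk RNA, a change in the number of cells of a type and a change in RNA per cell cannot be told apart.

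The family took up a larger share of the transcriptome in every celastrol library. Its 10 genes held 2.06% and 2.03% of all normalized reads with TGFB1 and celastrol, against 0.226% and 0.235% with TGFB1. They held 1.90% and 2.25% with celastrol, against 0.230% and 0.236% in controls. The makeup of the family differed as well. HSPA8, the constitutive HSC70, was 10.5% and 10.4% of family reads with TGFB1 and celastrol, against 71.8% and 73.8% with TGFB1. With celastrol it was 11.3% and 9.74%, against 68.4% and 70.1% in controls. In its place stood the inducible genes, with HSPA1A alone at 32.8% and 33.1% with TGFB1 and celastrol and at 30.9% and 32.9% with celastrol, against 2.70% to 2.93% with TGFB1 and 3.60% to 3.67% in controls. HSPA6 made up 13.2% to 14.3% of family reads in the 4 celastrol libraries and at most 0.0677% in the other 4.

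**Figure D2:**
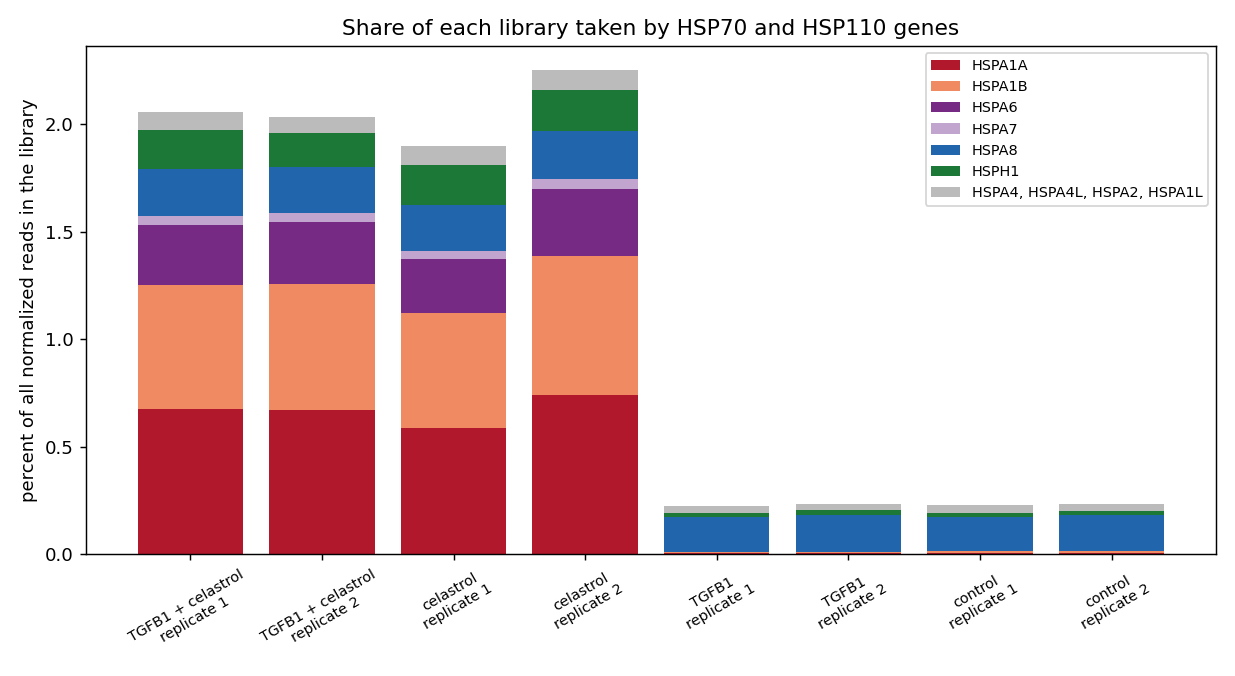
Share of each library taken by the family. The vertical axis is the percent of all normalized reads, each bar is 1 library, and colours are the members, with HSPA4, HSPA4L, HSPA2 and HSPA1L drawn together. The 4 celastrol bars reach 1.90% to 2.25% and are mostly HSPA1A, HSPA1B and HSPA6, while the other 4 reach 0.226% to 0.236% and are mostly HSPA8.

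With celastrol in TGFB1-treated cells, 9 of the 10 members were higher and 0 lower in limma (adjusted p under 0.05 over all tested genes), against 37.5% of tested genes called higher and 25.9% called lower. The same split, 9 higher and 0 lower, was called for celastrol without TGFB1, against 33.8% and 21.3% of tested genes. Leaving out HSPA7, this is 8 of 9 in each comparison. The median log2 fold change of the 10 members was 5.95 with TGFB1 and 5.44 without, beside 0.12 and 0.08 over all tested genes. With each library centred on its median, 30.4% of genes were called higher and 39.8% lower with TGFB1, and 29.5% and 32.7% without. With a common total these were 42.9% and 18.3%, and 31.9% and 26.5%. HSPA1A, HSPA1B, HSPA1L, HSPA4, HSPA4L, HSPA6, HSPA7 and HSPH1 were called higher under every alternative run in both comparisons. The member not called in either was HSPA2.

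HSPA1A and HSPA1B encode the major stress-inducible HSP70 in the class III region of the major histocompatibility complex. HSPA1A (chr6:31815543-31817946, hg38) had 182186 and 180841 normalized reads with TGFB1 and celastrol, against 1823 and 2086 with TGFB1. It had 158326 and 202959 with celastrol, against 2150 and 2210 in controls. The ratio of means was 92.9 with TGFB1 and 82.9 without. Its log2 fold changes were 6.54 (SE 0.11, limma adjusted p = 1.64e-08) and 6.36 (SE 0.11, adjusted p = 1.69e-08). HSPA1B (chr6:31827738-31830254) had 155983 and 156145 with TGFB1 and celastrol, against 1276 and 1483 with TGFB1. With celastrol it had 144144 and 176714, against 1817 and 2125 in controls. The log2 fold changes were 6.82 and 6.34. In coding sequence these copies differ at 4 of 1923 bases, so reads within the pair are uncertain. Summed to 1 row, the pair rose by 6.66 with TGFB1 and 6.35 without. HSPA1B also shares 920 exon bases on its own strand with the transcript AL671762.1, which had 4601 and 4767 with TGFB1 and celastrol, against 117 and 408 with TGFB1.

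HSPA1L, another HSP70 gene of that locus whose transcript is best known from testis, lies on the opposite strand at chr6:31809619-31815283. It had 1797 and 1727 normalized reads with TGFB1 and celastrol, against 33.9 and 27.1 with TGFB1. It had 1691 and 1701 with celastrol, against 26.3 and 48.2 in controls. Its log2 fold changes were 5.81 with TGFB1 (SE 0.24, limma adjusted p = 5.79e-07) and 5.53 without (SE 0.24, adjusted p = 8.54e-07). Its coding sequence is 81.8% identical to that of HSPA1A. In celastrol libraries its value was 0.838% to 1.07% of that of HSPA1A, against 1.22% to 2.18% in the other libraries, and a part for reads shared with HSPA1A was not tested.

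HSPA6 encodes HSP70B', a human member known for very low levels in unstressed cells. HSPA6 (chr1:161524540-161526894) had 76030 and 77777 normalized reads with TGFB1 and celastrol, against 0 and 14.9 with TGFB1. It had 67563 and 85624 with celastrol, against 31.5 and 40.8 in controls. In summed reads these were 179126 with TGFB1 and celastrol against 12 with TGFB1, a ratio of 9727 (95% counting interval 5568 to 18826), and 158107 with celastrol against 93 in controls, a ratio of 1979 (1615 to 2452). The fitted log2 fold changes of 14.24 (SE 0.98, limma adjusted p = 6.15e-06) and 11.01 (SE 0.98, adjusted p = 3.15e-05) depend on the added 1 where a library is listed at 0. Without TGFB1 replicate 1, which is that library, the first was 12.24, and without TGFB1 replicate 2 it was 16.23.

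HSPA7 (chr1:161606291-161608217) is annotated in GENCODE 29 as an unprocessed pseudogene, and over 1923 bases aligned with the HSPA6 coding sequence it differs at 27. It had 11481 and 11619 normalized reads with TGFB1 and celastrol, against 0 and 3.58 with TGFB1. It had 9500 and 12955 with celastrol, against 3.57 and 9.63 in controls. The TGFB1 values and 1 control value are within what a count of 0 allows. From 26935 summed reads with TGFB1 and celastrol against 3 with TGFB1 the ratio was 5851 (95% counting interval 2002 to 28373), and from 22988 with celastrol against 19 in controls it was 1408 (902 to 2339). HSPA7 was 12.3% to 13.1% of the summed pair in all 4 celastrol libraries, and the sources used here do not say how reads were divided between these copies. Summed, the pair rose by 14.29 with TGFB1 and 10.98 without on the log2 scale, with limma adjusted p = 8.65e-06 and 4.67e-05.

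**Figure D3:**
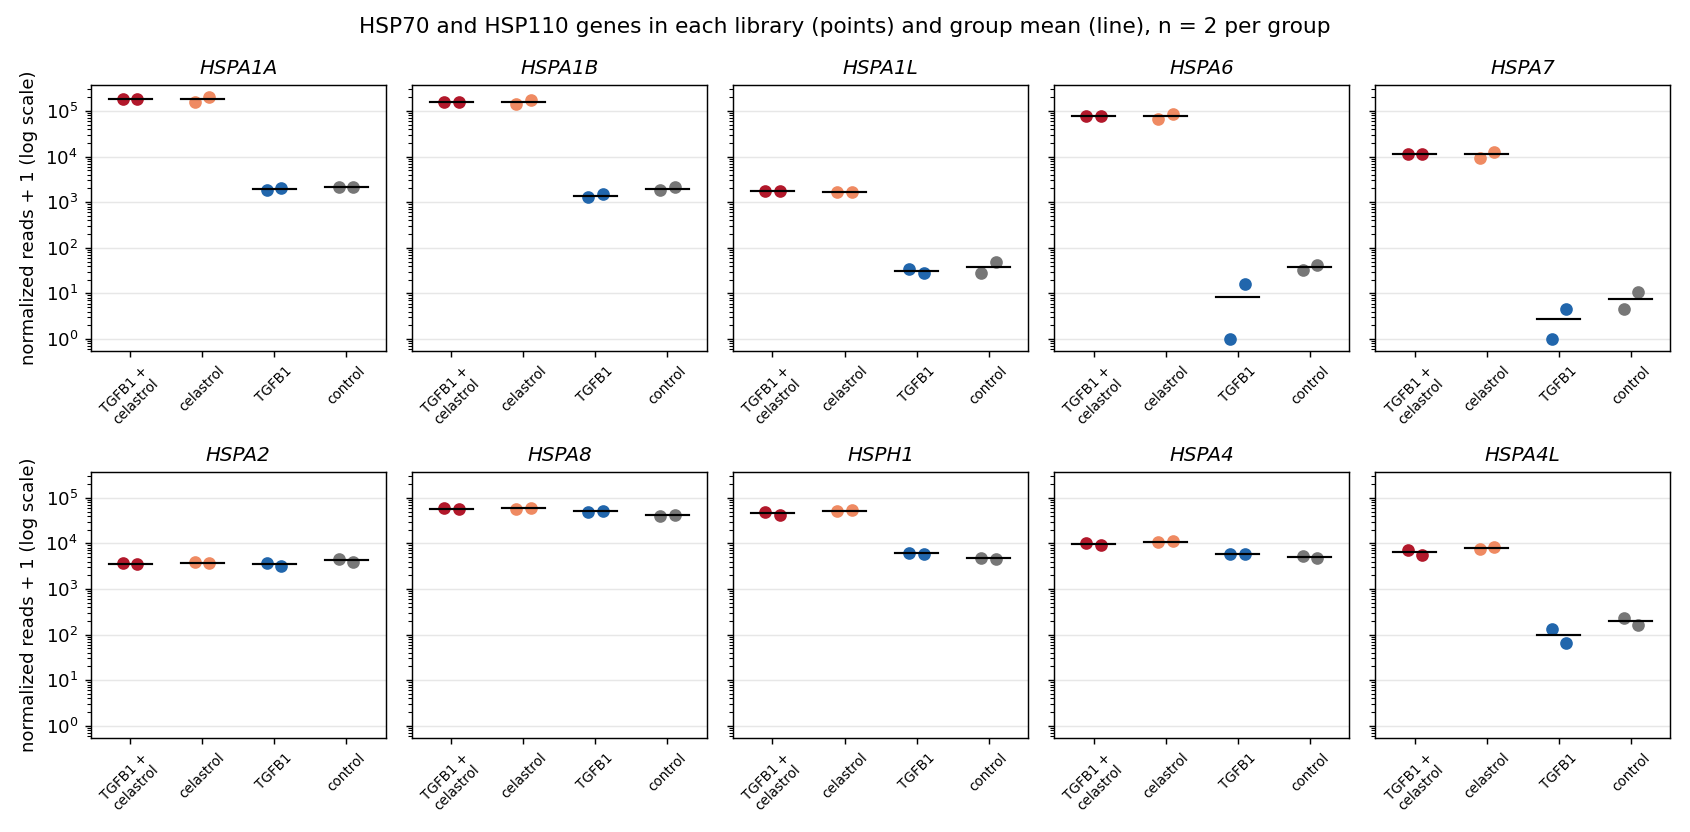
The 10 members in each library. The vertical axis is normalized reads plus 1 on a log scale, points are libraries and lines are means of 2. HSPA1A, HSPA1B, HSPA1L, HSPA6, HSPA7, HSPH1, HSPA4 and HSPA4L lie higher in both celastrol groups, HSPA8 slightly so, and the HSPA2 points lie between 3203 and 4641 in all groups.

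The cytosolic exchange factors of the HSP110 branch, HSPH1, HSPA4 and HSPA4L, were all higher with celastrol, to very different degrees. HSPH1 (HSP105, chr13:31134973-31162388) had 48979 and 42830 normalized reads with TGFB1 and celastrol, against 6099 and 5907 with TGFB1. With celastrol it had 50903 and 52854, against 4779 and 4543 in controls. These are ratios of 7.65 and 11.1, or log2 fold changes of 2.93 (SE 0.07, limma adjusted p = 8.21e-08) and 3.48 (SE 0.07, adjusted p = 2.57e-08). HSPA4 (APG-2, chr5:133052013-133106449), the highest of the HSP110 members in controls, had 10209 and 9123 with TGFB1 and celastrol, against 5917 and 5866 with TGFB1. It had 10511 and 11211 with celastrol, against 5179 and 4867 in controls. Its ratios were 1.64 and 2.16, with log2 fold changes of 0.71 and 1.11 (SE 0.07 each).

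HSPA4L (APG-1, chr4:127781821-127840733), an HSP110 gene whose loss impairs male fertility in mice, was low without celastrol. It had 7127 and 5541 normalized reads with TGFB1 and celastrol, against 130 and 63.9 with TGFB1. It had 7618 and 8463 with celastrol, against 234 and 164 in controls. The ratios of 65.3 and 40.4 were several times those of the other HSP110 genes (log2 fold changes of 6.09 and 5.35, SE 0.30 each, limma adjusted p = 1.18e-06 and 2.80e-06). Coding sequences within the branch are 66.6% to 68.1% identical. HSPA4L shares 536 exon bases with the antisense transcript AC093591.2, which was lower with celastrol (log2 fold changes of -2.26 and -3.32). It had 8.41 and 2.20 with TGFB1 and celastrol, against 22.6 and 28.3 with TGFB1. With celastrol it had 3.09 and 4.84, against 40.0 and 57.0 in controls, so its celastrol values rest on few reads. AC093591.2 passed the filter on low values only through libraries without celastrol, so it had to differ. Of the other overlapping rows, AC093591.1 was not called (-0.18 and 0.11). AC093591.3 had 174 and 144 with TGFB1 and celastrol, against 2.89 and 0 with TGFB1. With celastrol it had 203 and 218, against 0 and 2.86 in controls. This row passed the filter only through celastrol libraries, so it too had to differ (6.34 and 6.75). The sources used here do not say whether the counting used strand.

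HSPA8 and HSPA2 are the members that moved little. HSPA8 (chr11:123057489-123063230), which also uncoats clathrin vesicles, had 58452 and 56616 normalized reads with TGFB1 and celastrol, against 48492 and 52417 with TGFB1. It had 57763 and 59980 with celastrol, against 40828 and 42244 in controls. Both celastrol libraries were higher in each pair, as for 45.9% of tested genes with TGFB1 and 44.5% without. The ratios were only 1.14 and 1.42. The log2 fold change without TGFB1 was 0.50 (SE 0.07, limma adjusted p = 0.000298). With TGFB1 it was 0.19 (SE 0.07, adjusted p = 0.0350), a call made under 10 of 18 alternatives. It was lost without TGFB1 replicate 1 (adjusted p = 0.114), without TGFB1 with celastrol replicate 1 (0.160) or 2 (0.0873), and without celastrol replicate 1 (0.0643) or 2 (0.0649). Centring on the median turned it to -0.10 (adjusted p = 0.236). The 11 HSPA8 pseudogene rows in the table summed to 2.91% to 3.22% of HSPA8 in every library.

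HSPA2 (chr14:64535905-64546173), needed for meiosis in male mice, had 3714 and 3483 normalized reads with TGFB1 and celastrol, against 3774 and 3203 with TGFB1, and these ranges overlap. It had 3873 and 3650 with celastrol, against 4641 and 3988 in controls. Here both celastrol libraries were lower, as for 33.8% of tested genes. Neither difference was called, at 0.05 (95% interval -0.17 to 0.27, limma adjusted p = 0.681) and -0.19 (-0.42 to 0.03, adjusted p = 0.122). The second was called lower with a common total, with median centring and with a replicate block. Of its 3 neighbours within 25 kb, 2 were called higher with celastrol, against 37.5% of tested genes with TGFB1 and 33.8% without. PPP1R36, 3747 bases downstream on the same strand, was higher with celastrol by 2.56 with TGFB1 and by 2.70 without, and ZBTB1, 2215 bases upstream, by 0.57 and 0.69 (limma). A row named Y_RNA that overlaps HSPA2 on the same strand was not called, at -0.27 with TGFB1 (adjusted p = 0.140) and -0.11 without (0.537).

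The same window around other members held genes with differences of both signs. With celastrol in TGFB1-treated cells, 7 of 10 genes tested upstream of any member were called higher and 2 lower. Downstream these were 3 and 1 of 5, and among overlapping rows 3 and 1 of 6. Over all tested genes 37.5% were higher and 25.9% lower. Some genes were counted on more than 1 side, and some passed the filter only through celastrol libraries. FCGR2A, a receptor for immunoglobulin G that ends 527 bases upstream of HSPA6, had 41.9 and 48.3 normalized reads with TGFB1 and celastrol, and was listed at 0 in both TGFB1 libraries. FCGR2C, 629 bases upstream of HSPA7, had 94.3 and 99.9 with TGFB1 and celastrol, and was listed at 0 in both TGFB1 libraries. Both were listed at 0 in controls too, so they passed the filter on low values only through the celastrol libraries and could be tested only because they differed. CLMP, 6642 bases upstream of HSPA8, had 6914 and 7032 with TGFB1 and celastrol, against 10018 and 9984 with TGFB1, and fell by 0.52 (limma adjusted p = 3.02e-05).

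**Figure D4:**
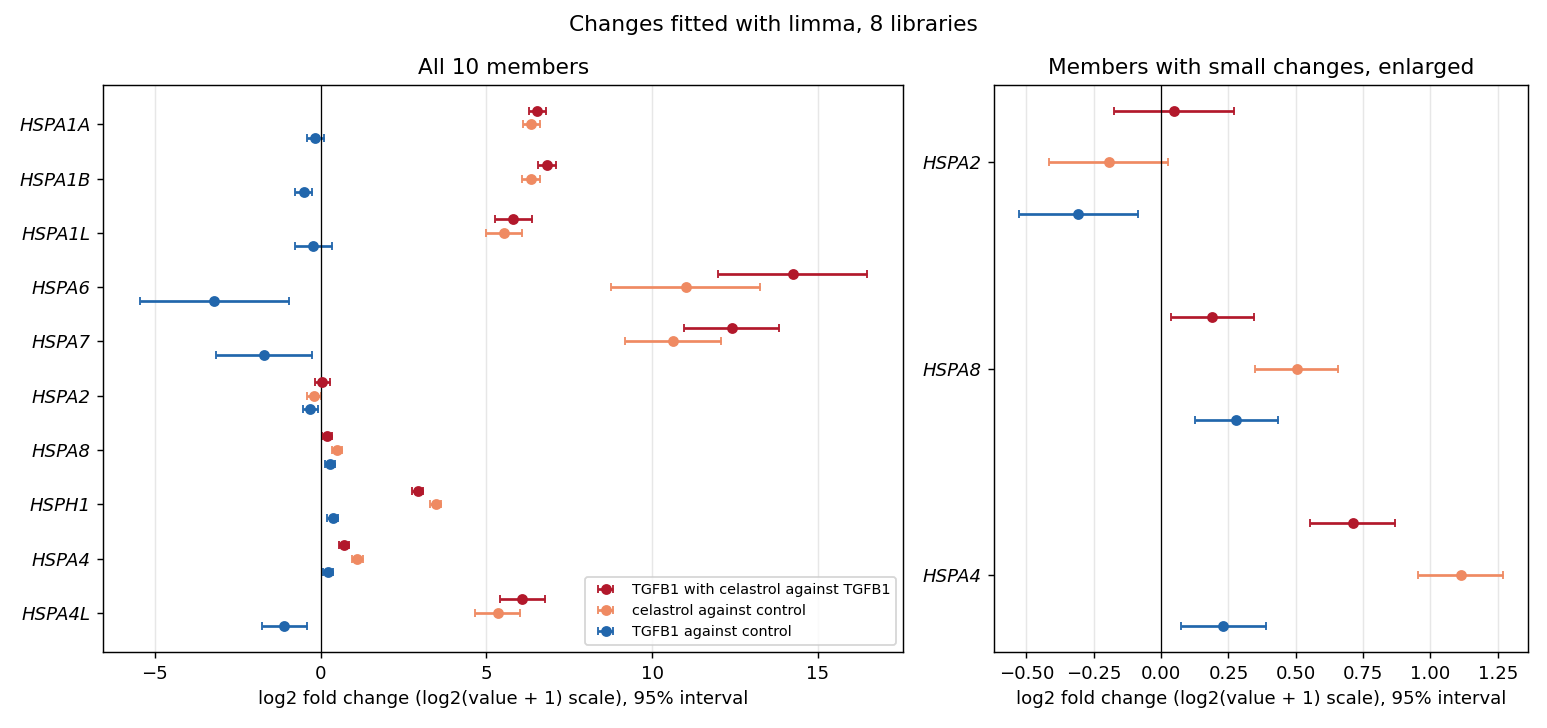
Log2 fold changes of the 10 members fitted with limma. The horizontal axis is the log2 fold change of log2(value + 1) with its 95% interval, for TGFB1 with celastrol against TGFB1 (dark red), celastrol against control (orange) and TGFB1 against control (blue), and the right panel enlarges HSPA2, HSPA8 and HSPA4. The celastrol changes reach 14.24 and 11.01 for HSPA6 and lie near 0 for HSPA2.

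Compared per kilobase of exon, the order of members was different with celastrol. Lengths joined the exons of all annotated transcripts of a gene, from 1927 bases for HSPA7 to 11621 for HSPA4L. The transcripts present may be shorter, so the order of members within a group depends on these lengths. Before this division the control means were 5023 for HSPA4 and 4661 for HSPH1. In controls HSPA8 was first at 8566 normalized reads per kilobase, with HSPA4 (975), HSPA1A (878), HSPA1B (782), HSPA2 (747) and HSPH1 (555) after it, then HSPA4L (17.1), HSPA6 (15.2), HSPA1L (14.6) and HSPA7 (3.42). HSPA1B and HSPA2 overlapped in range, as did HSPA4L with HSPA6 and HSPA6 with HSPA1L. With TGFB1 the order was HSPA8 (10405), HSPA4 (1143), HSPA1A (787), HSPH1 (715), HSPA2 (604), HSPA1B (547), then HSPA1L (12.0), HSPA4L (8.34), HSPA6 (3.13) and HSPA7 (0.928). HSPA2 and HSPA1B overlapped there, and so did each neighbouring pair from HSPA1L down. With celastrol HSPA1A was first at 72752, then HSPA1B (63637), HSPA6 (32304), HSPA8 (12141), HSPH1 (6183), HSPA7 (5827), HSPA4 (2108), HSPA4L (692), HSPA1L (667) and HSPA2 (651). The first pair, HSPH1 with HSPA7, and the last 3 in neighbouring pairs overlapped. With both agents HSPA1A was at 73103, HSPA1B at 61906, HSPA6 at 32435, HSPA8 at 11865, HSPA7 at 5994, HSPH1 at 5471, HSPA4 at 1876, HSPA1L at 692, HSPA2 at 623 and HSPA4L at 545, and only the last pair overlapped.

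TGFB1 alone was followed by differences of both signs. In limma 3 members were higher and 3 lower than in controls, against 12.8% and 10.6% of tested genes, with a median of -0.27 for the members and 0 for all genes. HSPH1 was higher by 0.37 (adjusted p = 0.00765), HSPA8 by 0.28 (0.0183) and HSPA4 by 0.23 (0.0432). HSPA1B was lower at -0.51 (0.0136), HSPA4L at -1.10 (0.0302) and HSPA6 at -3.21 (0.0464). Summed with its close copy, neither HSPA1B with HSPA1A (-0.32, adjusted p = 0.0772) nor HSPA6 with HSPA7 (-3.29, 0.0552) was called. Values that did not pass were -0.16 for HSPA1A, -0.23 for HSPA1L, -0.31 for HSPA2 and -1.70 for HSPA7. In reads, HSPA6 had 12 with TGFB1 against 93 in controls, a ratio of 0.209 (95% counting interval 0.104 to 0.383). HSPA7 had 3 against 19, a ratio of 0.256 (0.0485 to 0.870). TGFB1 replicate 1 had 0 reads of either gene, and TGFB1 replicate 2 had 12.1 of HSPA6 and 2.91 of HSPA7. The counting intervals leave out this spread between libraries, and how reads were divided between the copies is uncertain.

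These calls depended on the scaling, on settings of the fit and on single libraries. With a common total, which moved the median of all genes to -0.21 and the shares called to 6.20% higher and 23.6% lower, HSPA4 was at 0.00, HSPA8 at 0.05 and HSPH1 at 0.14 and none was called, while median centring gave 20.9% and 7.76%. Without a variance trend in the fit none of the 6 was called. The HSPA6 call was also lost with 0.5 added in place of 1 (limma adjusted p = 0.0686). It was lost too with no filter (0.0510) and with only the 4 compared libraries (0.326). HSPH1 was lost without control replicate 2 (adjusted p = 0.0591). HSPA8 was lost without control replicate 1 (0.0991) or 2 (0.0587) or TGFB1 replicate 2 (0.0510), and HSPA1B without control replicate 2 (0.0927) or TGFB1 replicate 1 (0.0650). HSPA4 was lost without either celastrol, control or TGFB1 library (adjusted p up to 0.211). HSPA4L was lost without control replicate 1, TGFB1 replicate 2 or any celastrol library with or without TGFB1 (up to 0.164), and was at -0.59 without TGFB1 replicate 2. HSPA6 was lost without either control library or any celastrol library (up to 0.162), and was at -1.21 without TGFB1 replicate 1 and at -5.20 without TGFB1 replicate 2. Of the others, HSPA1L passed without control replicate 1 (0.0318), HSPA2 without control replicate 2 (0.0430) or TGFB1 replicate 1 (0.0216), and HSPA7 without TGFB1 replicate 2 (0.00379).

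Among cells given celastrol, no member was called for TGFB1. TGFB1 with celastrol against celastrol gave 0 of 10 calls in limma, where 0.00437% of tested genes were called higher and 0.00437% lower. At an unadjusted p under 0.05 there were 2, HSPA4 at -0.17 (95% interval -0.33 to -0.01) and HSPH1 at -0.18 (-0.35 to -0.01). HSPA1A was at 0.02 (-0.24 to 0.27) and HSPA1B at -0.03 (-0.30 to 0.23), while HSPA6, at 0.02, had an interval of -2.23 to 2.26.

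The difference made by celastrol depended on TGFB1 for 2 members. In the interaction test HSPH1 was at -0.54 (SE 0.10, limma adjusted p = 0.0116) and HSPA4 at -0.40 (SE 0.10, adjusted p = 0.0339), against 6.89% of tested genes called lower and 4.36% called higher. Both rose by less in TGFB1-treated cells, by 2.93 with TGFB1 against 3.48 without for HSPH1 and by 0.71 against 1.11 for HSPA4, and both were also higher with TGFB1 alone. HSPA8 had the same sign without passing, at -0.31 (adjusted p = 0.0731). HSPA1B (0.48), HSPA4L (0.74), HSPA6 (3.22) and HSPA7 (1.76) were above 0 without passing. The HSPH1 call was lost without celastrol replicate 2 (0.0688) or control replicate 2 (0.0528). The HSPA4 call was lost without either celastrol, control or TGFB1 library or without TGFB1 with celastrol replicate 2 (up to 0.133). With a common total, where the median of all genes was 0.22 and 10.8% were higher and 3.50% lower, neither passed, HSPH1 at -0.31 (0.0727) and HSPA4 at -0.16 (0.275), nor did either without a variance trend. Without TGFB1 replicate 1, HSPA4L (0.0283), HSPA6 (0.0121) and HSPA8 (0.0322) passed too, and without TGFB1 replicate 2, HSPA6 (7.06e-05) and HSPA7 (0.0173).

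Among the listed partners of HSP70, most J-domain genes and most genes for HSP90 and its adaptors were higher with celastrol. These lists are selections, drawn up with earlier results of these data known, and do not stand for whole families. Of 9 J-domain genes, 7 were higher and 2 lower with celastrol in TGFB1-treated cells (median log2 fold change 1.15) and 7 higher and 0 lower without TGFB1 (1.54). The shares over all tested genes, for this and the gene lists that follow, were 37.5% higher and 25.9% lower with TGFB1 and 33.8% higher and 21.3% lower without. DNAJB1, the main J-domain partner of inducible HSP70, had 56382 and 54293 normalized reads with TGFB1 and celastrol, against 1490 and 1595 with TGFB1, and rose by 5.16. DNAJA4 rose by 5.34 and DNAJA1 by 1.17. Of 6 genes for HSP90 and its adaptors, 5 were higher and 1 lower in both comparisons (medians 1.31 and 1.63). The HSP90 co-chaperone CHORDC1 rose by 2.70 with TGFB1 and by 3.14 without, HSP90AA1 by 1.61 and 1.66, and HSP90AB1 by 1.22 and 1.60.

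The other exchange factors did not move as a block. Of 6 genes for BAG proteins and HSPBP1, 2 were higher and 3 lower with TGFB1 (median -0.13) and 1 higher and 1 lower without (0.03). BAG3, which links HSP70 to autophagy, rose by 2.41 and 3.04. BAG2 rose by 0.66 with TGFB1 and was at 0.04 without, and BAG5 fell by 0.61 and 0.38. Of 6 other HSP70 superfamily genes in the table, 2 were higher and 3 lower with TGFB1 (median -0.09) and 3 higher and 1 lower without (0.34). HSPA9, the mitochondrial HSP70, rose by 0.87 and 1.28. HYOU1, an exchange factor of the endoplasmic reticulum, fell by 0.84 and 0.21, and HSPA12A fell by 0.52 with TGFB1 and was at -0.14 without.

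Of 4 genes for heat shock factors and their binding protein, 1 was higher and 2 lower with celastrol in TGFB1-treated cells and 1 higher and 0 lower without TGFB1. HSF1, which drives the inducible members, had 855 and 817 normalized reads with TGFB1 and celastrol, against 1178 and 1375 with TGFB1, and fell by 0.61. Without TGFB1 it was at -0.22 (limma adjusted p = 0.0659). HSF2 rose by 0.69 with TGFB1 and was at 0.39 without, and HSBP1, which binds HSF1, fell by 0.28 with TGFB1 and was at 0.06 without. These are transcript levels, while HSF1 is known to be controlled mainly as a protein.

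Likeness of pattern was measured as the root mean square difference in log2(value + 1), each gene set relative to its control mean, over 8 libraries and 12273 candidate genes. Genes most like HSPA1A included NR4A3 (0.243), which had at least 3616 normalized reads in every celastrol library and at most 53.8 in every library without celastrol. PRLHR (0.202), TEX35 (0.284) and ASXL3 (0.314) ranked beside it, but they had at most 0.600 normalized reads in any library without celastrol, so their likeness is set by the added 1. The 5 most like HSPH1 were USPL1 (0.152), PPP1R15A (0.185), SLC2A9 (0.218), CHORDC1 (0.219) and SPDYA (0.222). HSPA8, with its small changes, was closest to CD2BP2 (0.0251), RAB7A (0.0321), HERC3 (0.0421), CCT2 (0.0502) and SOCS6 (0.0539).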

How the data were processed

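RNA was measured in 8 libraries. The deposited signal values were, per the submitters' processing notes, made with Partek 10.0.22, STAR 2.7.3a and DESeq2 on build hg38, and the sources used here give no annotation, counting rule or use of strand. Low values fall on fixed steps in each library, so the signal was taken to be estimated reads over 1 size factor per library, and the steps gave the depth (20716767 to 42518385 reads). Under 10000 reads, 68.5% to 73.0% of values were whole within 0.02 reads, so no count model was used in the fits.

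Values were tested as log2(value + 1) with limma 3.58.1 in R 4.3.3 (variance trend, 1 mean per group, 8 libraries, 4 residual degrees of freedom, two-sided). The added 1 shrinks changes of low genes, but a library listed at 0 can enlarge a fitted change. For celastrol in TGFB1-treated cells HSPA6 was at 14.24, and at 12.24 without the TGFB1 library listed at 0. Genes with at least 10 in at least 2 libraries entered, and p-values were adjusted by Benjamini-Hochberg over 22866 genes within each of 5 comparisons, with calls under 0.05. The comparisons share control, TGFB1 and celastrol libraries, so their values are set side by side only. The fit was tested on simulated data. Counting intervals, given for HSPA6 and HSPA7 only, are exact 95% Poisson intervals on summed reads rounded to whole numbers. They cover counting error only, and take the division of reads between these copies as known. That division is uncertain, since their estimated reads were not whole (12.09 and 2.91 in TGFB1 replicate 2). Exon lengths and coding sequences are from GENCODE 29. The 10 members and the lists of related genes were chosen with earlier results of these data known. All members were named, with up to 3 genes per list by smallest p in TGFB1-treated cells, 5 genes of most similar pattern for 3 members, and neighbours within 25 kb; 1 gene of similar pattern is not reported here. Replicate numbers follow the titles, though another label numbers celastrol replicate 2 as 3.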

Additional observations from a re-analysis of the deposited data

Results flagged for a closer look

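HSPH1 and HSPA4 differed in how they changed with celastrol depending on TGFB1, by the interaction test. The celastrol difference with TGFB1 minus that without was -0.54 for HSPH1 and -0.40 for HSPA4 on the log2 scale (limma adjusted p = 0.0116 and 0.0339). Both libraries with TGFB1 and celastrol lay below both with celastrol, with HSPH1 at 48979 and 42830 normalized reads with TGFB1 and celastrol against 50903 and 52854 with celastrol, and HSPA4 at 10209 and 9123 against 10511 and 11211. Of all tested genes, 17.1% lay lower in this way. Neither gene was called for TGFB1 with celastrol against celastrol, at -0.18 for HSPH1 and -0.17 for HSPA4. For TGFB1 against control HSPH1 was at 0.37 and HSPA4 at 0.23. Neither interaction call held with a common total or without a variance trend.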

How the results depend on the processing

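Of the members' log2 fold changes recomputed under the alternatives, 777 kept their direction and side of the threshold, 60 lost a call, 22 gained one and 11 changed sign, while 148 counts of calls stayed within 1.5 times and 30 did not. For TGFB1 against control (3 higher, 3 lower), a common total gave 0 higher and 5 lower, no variance trend 0 and 0, and only the 4 compared libraries 1 and 0, while the replicate block gave 5 lower and summing close copies 1 lower. Leaving out 1 library gave 0 to 3 higher and 1 to 3 lower. For celastrol against control, 1 member instead of 0 was lower with a common total, median centring and the replicate block, namely HSPA2 (-0.27, -0.37 and -0.19, adjusted p = 0.0382, 0.00977 and 0.0140). For the interaction (0 higher, 2 lower), a common total gave 1 higher and 0 lower, no variance trend 0 lower and the replicate block 1 higher, and leaving out 1 library gave 0 to 2 in each direction. Median centring turned HSPA2 and HSPA8 for celastrol with TGFB1 to -0.24 and -0.10. The other changes of sign came from leaving out 1 library. HSPA1L ranged from -0.65 to 0.20 for TGFB1 (0.20 without control replicate 2) and from -0.14 to 0.70 in the interaction (-0.14 without control replicate 2), HSPA2 from -0.069 to 0.17 for celastrol with TGFB1 (-0.069 without TGFB1 replicate 2), and HSPA1A from -0.00042 to 0.36 in the interaction (-0.00042 without celastrol replicate 1). For TGFB1 with celastrol against celastrol, HSPA1A ranged from -0.16 to 0.20, HSPA1B from -0.18 to 0.11, HSPA6 from -0.16 to 0.19 and HSPA7 from -0.17 to 0.28, with the ends at either celastrol library left out. HSPA6 was also at -0.00055 without TGFB1 with celastrol replicate 2. The cause was not tested. Same-numbered libraries correlated in their deviations by 0.0499 to 0.0815, so the numbers are not established as pairs. With the replicate block HSPA1B (adjusted p = 0.00892) and HSPA8 (0.0210) were called in the interaction. Depth limits the values of HSPA6 and HSPA7 without celastrol.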
